A study of Mus musculus with 52 samples.

Results

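Genes that mark veins and that let leukocytes attach to the vessel wall were followed across the brain and pituitary vessels of WT and beta-catenin stabilized mice. The group holds 7 genes, chosen by name, of 49585 genes in the annotation: Vcam1, Icam1, Sele, Selp, Vwf, Lrg1 and Nr2f2. Leukocytes leave the blood mainly through venules. Selectins on the endothelial cells (ECs) let them roll, and members of the immunoglobulin family on the same cells then hold them by their integrins. E-selectin (Sele) and P-selectin (Selp) serve the first step, and VCAM1 and ICAM1 the later steps, VCAM1 as a ligand of alpha4 integrins and ICAM1 as a ligand of beta2 integrins. Von Willebrand factor (Vwf) is a large secreted protein that captures platelets and is stored with P-selectin in the Weibel-Palade bodies of ECs. Lrg1 encodes a secreted leucine-rich glycoprotein found in venules and raised in inflammation, and Nr2f2 encodes COUP-TFII, the transcription factor that sets venous identity. In brain vessels at rest the adhesion molecules are kept low, and they rise with cytokines that act through NF-kB.

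RNA was measured in 40 libraries. Of these, 24 came from cells that were sorted from cerebellum (a tissue with a blood-brain barrier), anterior pituitary and posterior pituitary (2 tissues with permeable vessels) into GFP-positive cells, labelled as vascular ECs, and GFP-negative cells of the surrounding tissue. WT mice in these sorts carried Tie2-GFP alone. Stabilized mice carried Tie2-GFP, Pdgfb-CreER, a Cre that 4-hydroxytamoxifen activates in ECs, and BcatEx3fl, an allele from which Cre removes the exon needed for degradation of beta-catenin. They were given 4-hydroxytamoxifen as pups and WT mice of the sort were not described as receiving it, so that stabilization cannot be told apart from Cre or drug in the sorted cells. The other 16 libraries were RiboTag libraries of cerebral cortex and choroid plexus, with RNA bound to epitope-tagged ribosomes (bound) and RNA of the whole tissue (input). Here WT mice carried RiboTag and Pdgfb-CreER, stabilized mice also BcatEx3fl, and the same Cre switched on the tag and the deletion. The authors describe both genotypes as compared some weeks after 4-hydroxytamoxifen was injected. All mice were adult males, every group had 2 replicates, and pituitaries of many mice were pooled for a replicate. Accessible chromatin of the GFP-positive cells was mapped in 12 ATAC-seq libraries.

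The estimated counts came to between 12157485 and 37529274 per sorted library and between 6409013 and 21399125 per RiboTag library. A library of stabilized anterior pituitary ECs (replicate 2) carries an anterior title but a posterior tissue entry, and its title was followed. Composition differed between RiboTag groups: genes with an effective length under 250 bases took 37.9% to 40.5% of the TPM in the 4 WT cortex libraries, against 75.2% to 78.7% in the 4 stabilized cortex libraries and 74.6% to 80.9% in the 8 choroid plexus libraries. In cortex, genotype and this shift in composition cannot be told apart. Levels are therefore given as CPM (read counts normalised to library size) after TMM scaling. In the text GFP-positive, GFP-negative, bound and input libraries were scaled apart, and within each set CPM are on the scale of the fold changes. Fold changes between sets come from joint fits with a scaling of their own, and they can differ from the ratio of the printed CPM. The plot of the RiboTag libraries uses a scaling over all of them together. TPM, which corrects for transcript length, is used to compare genes within a group and for the correlations across libraries. It is also used where a result is given on the TPM scale. On TMM-scaled counts the median log2 fold change over all genes lay between -0.33 and 0.36 in the comparisons, whereas on the TPM scale it lay between -1.17 and 0.65. A gene was called when edgeR's quasi-likelihood test gave a Benjamini-Hochberg adjusted p under 0.05 over all genes tested and at least a 2-fold change. Unless another setting is named, adjusted p values below are from this test, and fold changes are given on the log2 scale with their standard error. Counts at an unadjusted p under 0.05 come without the share of all genes at that limit.

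The control regions to which the results refer are shown first. Sequences are from GRCm38 and credited to RefSeq. Promoter windows run from 250 bases before to 50 bases after the RefSeq start, 5′ to 3′ on the strand of the gene, and 5 of the 7 genes had one (Icam1, Sele, Selp, Nr2f2 and Lrg1). Capitals mark matches, on either strand, to 4 motifs: the TATA motif TATAAA, the TCF/LEF motif ATCAAAG or TTCAAAG, the AP-1 motif TGANTCA and the NF-kB consensus. Shown for its open chromatin in all 12 ATAC-seq libraries is the Icam1 promoter (chr9:21015690-21015989, plus strand), and for its gain of a peak in stabilized posterior pituitary the Lrg1 promoter (chr17:56121897-56122196, minus strand).
Icam1: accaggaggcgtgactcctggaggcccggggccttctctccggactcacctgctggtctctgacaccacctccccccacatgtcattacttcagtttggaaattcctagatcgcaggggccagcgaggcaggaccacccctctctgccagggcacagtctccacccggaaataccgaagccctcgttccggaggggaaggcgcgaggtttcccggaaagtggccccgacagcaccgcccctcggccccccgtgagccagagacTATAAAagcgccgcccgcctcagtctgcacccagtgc
Lrg1: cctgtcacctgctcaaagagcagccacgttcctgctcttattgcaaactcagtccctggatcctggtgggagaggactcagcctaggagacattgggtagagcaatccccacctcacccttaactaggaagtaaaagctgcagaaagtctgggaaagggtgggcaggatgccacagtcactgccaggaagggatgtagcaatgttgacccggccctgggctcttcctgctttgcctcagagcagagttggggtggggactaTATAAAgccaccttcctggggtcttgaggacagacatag
Each holds 1 capitalised match, the TATA motif beginning at base 14 (Icam1) and base 12 (Lrg1) with the RefSeq start as base 1, which 14.2% of 27025 promoter windows of this length also hold. None of the 5 promoter windows held the NF-kB consensus, which 8.18% of all windows hold. Its matches in the peak windows below begin with GGG and end with CC. Related letters, such as ggaaattcc in the Icam1 window, were not counted. The Selp promoter held ATCAAAG from position -209 and an AP-1 match from -139, the Sele promoter an AP-1 match from -73 and TATAAA from -49, and the Nr2f2 promoter CTTTGAT, the reverse complement of ATCAAAG, from -114, counted in bases from the start.

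Another 3 windows of 300 bases, on the plus strand and centred on the summit of a peak found in stabilized and not in WT ECs of that tissue, are shown because they hold a motif match at genes whose RNA is described below. Such gained peaks numbered 15 at the 7 genes, of which 5 held a match to the TCF/LEF, AP-1 or NF-kB motif and 10 held none, and the 3 shown were picked from those 5 after the matches were seen. They are a window between genes at -6717 bases from the start of Sele (posterior pituitary, chr1:164041367-164041666), one in an intron of Vwf 50426 bases from its start (anterior pituitary, chr6:125597050-125597349) and one in an intron of Vwf 6125 bases from its start (posterior pituitary, chr6:125552749-125553048).
Sele, posterior pituitary: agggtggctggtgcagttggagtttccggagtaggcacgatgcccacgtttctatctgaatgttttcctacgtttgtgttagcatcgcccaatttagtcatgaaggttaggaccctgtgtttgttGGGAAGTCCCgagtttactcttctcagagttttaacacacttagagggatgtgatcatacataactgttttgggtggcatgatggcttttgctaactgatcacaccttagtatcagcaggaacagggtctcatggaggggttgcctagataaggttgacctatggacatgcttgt
Vwf, anterior pituitary: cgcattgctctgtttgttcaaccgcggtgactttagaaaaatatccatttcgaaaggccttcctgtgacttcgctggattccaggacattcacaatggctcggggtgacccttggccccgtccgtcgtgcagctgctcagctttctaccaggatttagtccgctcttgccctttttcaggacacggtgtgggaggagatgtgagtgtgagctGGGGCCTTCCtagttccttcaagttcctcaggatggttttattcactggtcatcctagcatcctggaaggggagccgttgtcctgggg
Vwf, posterior pituitary: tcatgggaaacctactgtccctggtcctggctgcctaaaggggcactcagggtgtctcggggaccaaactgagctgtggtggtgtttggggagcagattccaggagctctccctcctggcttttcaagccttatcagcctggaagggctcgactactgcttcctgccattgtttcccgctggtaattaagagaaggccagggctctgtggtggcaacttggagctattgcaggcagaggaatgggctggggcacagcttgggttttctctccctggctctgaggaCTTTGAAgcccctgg
The capitals in the Sele window and in the first Vwf window are matches to the NF-kB consensus, and those in the second Vwf window are CTTTGAA, the reverse complement of a TCF/LEF motif. Among windows centred on all peaks of 1 stabilized posterior pituitary library 11.8% hold the NF-kB consensus and 9.65% the TCF/LEF motif, and in anterior pituitary 10.9% hold the NF-kB consensus. Of the 15 gained windows 4 hold the NF-kB consensus, 1 the TCF/LEF motif and 0 the AP-1 motif. A match describes the letters and not a bound factor.

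The first comparison asked how the 7 genes differ between vascular beds of WT mice. In WT cerebellum ECs Vwf and Vcam1 had the highest levels per length, at 64.2 ± 17.6 and 52.2 ± 14.9 TPM (SD, n = 2), followed by Icam1 at 20.3 ± 7.87, Nr2f2 at 8.81 ± 2.78, Lrg1 at 5.99 ± 5.62, Selp at 2.63 ± 3.69 and Sele at 1.05 ± 0.208 TPM. The ranges of Vwf and Vcam1 overlapped, as did those of each pair of neighbours from Nr2f2 to Sele. In 1 of these libraries a short Vwf transcript with a retained intron took 66.4% of the Vwf TPM. In WT anterior pituitary ECs the order was another, with Icam1 at 44.6 ± 26.6, Nr2f2 at 31.3 ± 3.13 and Lrg1 at 20.6 ± 15.0 TPM, 3 genes whose ranges overlapped, while Vwf had 0.216 ± 0.113 TPM. In WT posterior pituitary ECs Icam1 had 56.5 ± 2.35 TPM and Vwf 15.99 ± 13.7, Lrg1 11.4 ± 7.56, Nr2f2 11.3 ± 7.67 and Vcam1 6.01 ± 1.54 TPM, of which the last 4 overlapped.

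Vcam1 (ENSMUSG00000027962; chromosome 3, 116109949 to 116129688, minus strand) was nearly absent from WT anterior pituitary ECs. It had 176 and 240 CPM in the 2 WT cerebellum EC libraries, 18.3 and 16.7 CPM in posterior and 0 and 0.0314 CPM in anterior pituitary ECs, the last from 0 and 1 read. The 3 tissues did not overlap. By summed reads the cerebellum was 13232-fold higher than the anterior lobe (95% counting interval 2374 to 522664) and the posterior lobe 1155-fold higher (207 to 45655). All 3 differences were called (adjusted p = 1.2e-06 for anterior against cerebellum, 3.5e-05 for the lobes and 0.00033 for posterior pituitary against cerebellum, log2 fold change -3.57 ± 0.43). The call between the lobes was lost with only the groups compared (adjusted p = 0.1, log2 fold change over 8 settings from 3.67 to 10.14). Such intervals cover counting error only, since PCR duplicates could not be removed from these counts.

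Vwf (ENSMUSG00000001930; chromosome 6, 125546774 to 125686679, plus strand) followed the same order of tissues. Its levels were 482 and 538 CPM in WT cerebellum, 83.7 and 204 in posterior and 0.601 and 0.503 CPM in anterior pituitary ECs. By summed reads the cerebellum was 914-fold higher than the anterior lobe (660 to 1306) and the posterior lobe 225-fold higher (163 to 322), and both were called (adjusted p = 1.9e-06 and 3.5e-05). Posterior pituitary ECs were lower than cerebellum ECs by -1.82 ± 0.43 (adjusted p = 0.032), a call that was lost under 4 of 8 other settings (adjusted p between 4.4e-07 and 0.17) and without replicate 1 of the WT posterior pituitary ECs (-1.32, adjusted p = 0.08).

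The venous factor Nr2f2 (ENSMUSG00000030551; chromosome 7, 70351944 to 70366735, minus strand) was highest where those genes were lowest. It reached 135 and 91.1 CPM in WT anterior pituitary ECs, against 42.3 and 29.1 CPM in cerebellum and 40.1 and 16.1 CPM in posterior pituitary ECs. Anterior pituitary ECs did not overlap with either other tissue, and the difference from cerebellum was called (1.66 ± 0.43, adjusted p = 0.043). That call was lost under 3 of 8 settings (adjusted p between 0.0024 and 0.32) and without WT cerebellum replicate 2 or WT anterior pituitary replicate 1. Between the lobes the difference was -2.01 ± 0.43 with an adjusted p = 0.052. It was called with DESeq2, without the filter and with the replicate number as a block (adjusted p over 8 settings from 0.00023 to 0.29), and without WT anterior pituitary replicate 2 or WT posterior pituitary replicate 1 (-2.82 to -1.5 with a library left out).

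Icam1 (ENSMUSG00000037405; chromosome 9, 21015985 to 21028817, plus strand) was measured in all WT ECs, with 89.0 and 95.2 CPM in cerebellum, 104 and 182 in anterior and 123 and 162 CPM in posterior pituitary, and it was called in none of the 3 comparisons. Lrg1 (ENSMUSG00000037095; chromosome 17, 56119678 to 56122001, minus strand) varied about as much within as between tissues, with 2.63 and 16.5 CPM in cerebellum, 43.9 and 13.9 in anterior and 17.6 and 6.69 CPM in posterior pituitary. The selectins were rare. Sele (ENSMUSG00000026582; chromosome 1, 164048234 to 164057677, plus strand) had 5.29 and 5.21 CPM in cerebellum, 1.90 and 1.22 CPM in posterior pituitary and no read in either WT anterior pituitary library, so that cerebellum was at least 114-fold higher with 3 counts over the group as the floor. Selp (ENSMUSG00000026580; chromosome 1, 164115264 to 164150026, plus strand), a neighbour of Sele, had 0.143 and 3.74, 2.43 and 1.16, and again no read in the anterior lobe. DESeq2 called both selectins lower in the anterior lobe than in either other tissue (adjusted p from 0.0032 to 0.034), and edgeR with its filter on low counts did not (0.18 to 0.38). Of the 21 tests of the 7 genes between WT tissues 7 were called, where 5.26% (anterior pituitary against cerebellum), 4.40% (posterior pituitary against cerebellum) and 0.994% (between lobes) of all genes were called.

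**Figure D1:**
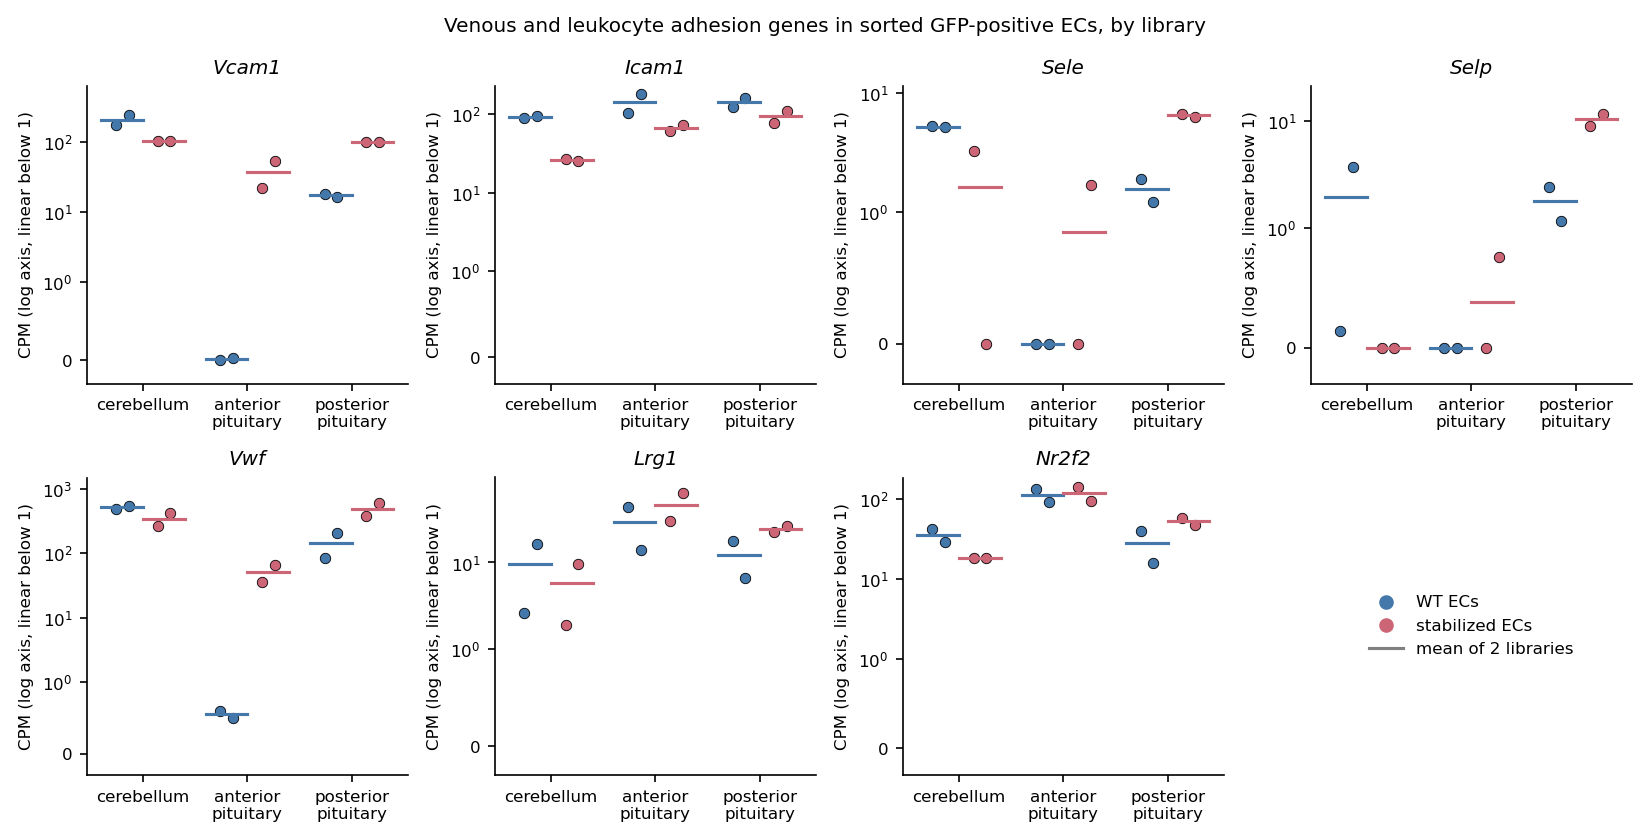
CPM of the 7 genes in each sorted GFP-positive EC library (log axis, linear below 1 CPM), with WT in blue and stabilized in red. Points are libraries and lines the mean of 2. Vcam1 and Vwf sit near 0 in WT anterior pituitary ECs (0 to 0.0314 and 0.503 to 0.601 CPM) and at 21.9 to 52.9 and 35.4 to 66.2 CPM in stabilized anterior pituitary ECs, while Icam1 lies lower in stabilized than in WT cerebellum ECs.

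Other venous and arterial EC genes were counted between WT anterior pituitary and WT cerebellum ECs, where 5.26% of all genes were called. The difference between the lists was not tested. Of 9 other venous EC genes, 4 were called lower in WT anterior pituitary than in WT cerebellum ECs (among them Slc38a5, an amino acid transporter, Tmem252, and Il1r1, the interleukin 1 receptor) and 1 higher (Nrp2, a coreceptor of semaphorins and VEGF), with a list median of -3.401 against 0.00 for all genes. Of 9 arterial EC genes 4 were called lower there too, among them Bmx, a kinase of arterial ECs, and Gja5, which encodes connexin 40, both with no read in WT anterior pituitary ECs. Efnb2, an arterial ephrin, was called higher. The list median was -1.71.

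Enrichment in ECs over the GFP-negative cells of the same tissue shows which of the 7 genes an EC library can speak for. Vwf, Icam1 and Lrg1 had low CPM in GFP-negative cells. Icam1 had 0 to 12.3 CPM over the 12 GFP-negative libraries, Vwf 0 to 9.22 and Lrg1 0 to 1.17 CPM. In WT mice Icam1 was called higher in ECs in all 3 tissues (4.09 ± 1.24 in cerebellum, adjusted p = 0.037; 4.49, adjusted p = 0.025, and 5.99 ± 1.36, adjusted p = 0.0049, in anterior and posterior pituitary). In posterior pituitary the GFP-negative libraries had 0 and 93 Icam1 reads, and the fitted difference was 5.11 without the first and 14.96, which is no bound, without the second. Lrg1 was called higher too, by summed reads 259-fold in cerebellum (71.2 to 2141) and at least 690-fold and 256-fold in anterior and posterior pituitary, where WT GFP-negative cells had no read. Vwf was called in cerebellum (6.76 ± 1.45, adjusted p = 0.0043) and posterior pituitary (5.59 ± 1.39, adjusted p = 0.0088) but not in anterior pituitary, where WT ECs had 36 reads in all. The posterior pituitary call was lost with the length offset and with limma on TPM (log2 fold change over 8 settings from 0.39 to 12.26, adjusted p from 1.9e-23 to 1), and on the TPM scale GFP-negative replicate 2 had 33.76 against 6.31 and 25.66 in the 2 EC libraries. In anterior pituitary the GFP-negative libraries had 0 and 5.77 CPM, and the fitted difference was -3.33 without the first of them and 6.92 without the second, both called and in opposite directions. Without the filter on low counts it was called lower in ECs (adjusted p = 1.9e-05). In a fit of only the groups compared the Lrg1 calls in cerebellum and posterior pituitary and the Icam1 call in posterior pituitary were lost (adjusted p up to 0.12, the first just over the threshold). The Icam1 calls in cerebellum and anterior pituitary and the Lrg1 call in cerebellum were lost without 1 of the WT GFP-negative libraries of that tissue (replicate 1 in cerebellum, either replicate in anterior pituitary).

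Vcam1 was not an endothelial transcript in these tissues alone. GFP-negative cells of WT mice had 119 and 59.5 CPM in cerebellum, 14.1 and 12.7 CPM in anterior and 1.91 and 16.6 CPM in posterior pituitary. In WT anterior pituitary the GFP-negative cells held 1006 reads against 1 in ECs, a 923-fold difference (165 to 36508) that was called in the direction of the GFP-negative cells (adjusted p = 4.1e-05). Nr2f2 was also found outside ECs (3.81 to 31.0 CPM) and was called higher in ECs in anterior pituitary (2.39 ± 0.70, adjusted p = 0.033, called under 5 of 8 other settings, adjusted p from 0.0024 to 0.22, and not without GFP-negative replicate 2 or EC replicate 1). It was also called in posterior pituitary with the length offset and with limma on TPM, and in cerebellum without GFP-negative replicate 2. Sele and Selp together had 3 reads in the 12 GFP-negative libraries. In all 10 of the 21 tests were called, 9 of them higher in ECs, where 4.46%, 5.46% and 7.07% of all genes were called higher in ECs of cerebellum, anterior and posterior pituitary.

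The next comparison asked how these genes differed between stabilized and WT ECs. The endothelial adhesion molecule Vcam1 and the platelet-binding Vwf appeared in anterior pituitary ECs, and Vcam1 rose in posterior pituitary ECs, while Icam1 fell in cerebellum ECs. In bulk libraries a change in the number of cells that express a gene and a change in RNA per cell cannot be told apart. Vcam1 had 0 and 1 read in WT and 615 and 1247 reads in stabilized anterior pituitary ECs, or 21.9 and 52.9 CPM. The ratio of summed reads was 2347 (421 to 92744), the fitted difference was called (adjusted p = 1.3e-05), and it was called under all 8 other settings (adjusted p from 1.3e-54 to 0.026) and without each of the 4 libraries, the one with conflicting labels included. In posterior pituitary ECs Vcam1 went from 18.3 and 16.7 CPM in WT to 101 and 99.5 CPM in stabilized libraries, a 5.74-fold rise (2.52 ± 0.41, adjusted p = 0.0099). That call was lost with an offset for gene length and on the TPM scale (adjusted p over 8 settings from 2.6e-08 to 0.26, log2 fold change 1.4 to 2.55). In cerebellum ECs Vcam1 had 176 and 240 CPM in WT and 104 and 104 in stabilized libraries, which did not overlap but were not called (-1.0 ± 0.40, adjusted p = 0.43). Among stabilized ECs the anterior lobe lay below the other 2 tissues in CPM, whereas its TPM (4.835 and 14.71) overlapped with that of the posterior lobe (20.59 and 13.11), and this was not tested.

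Vwf in anterior pituitary ECs went from 0.601 and 0.503 CPM in WT to 35.4 and 66.2 CPM in stabilized libraries. Summed reads were 36 and 2554, a ratio of 89.4 (64.4 to 128), and the fitted difference was called (6.51 ± 0.56, adjusted p = 8.5e-05). It was called under 6 of 8 other settings, with the length offset and the TPM scale as exceptions (adjusted p from 3e-54 to 0.24), and without each of the 4 libraries. In posterior pituitary ECs Vwf had 83.7 and 204 CPM in WT and 372 and 594 in stabilized libraries, which did not overlap, and the difference just missed the threshold (1.75 ± 0.43, adjusted p = 0.069). It was called under 3 of 8 other settings, DESeq2, no filter and the replicate block (adjusted p from 2.5e-06 to 0.35), and without WT replicate 2 or stabilized replicate 1, with the log2 fold change between 1.26 and 2.53. In cerebellum ECs Vwf had 482 and 538 CPM in WT and 267 and 418 CPM in stabilized libraries (-0.57 ± 0.42, adjusted p = 0.65).

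The tissues differed in these responses by the test of the difference itself. The effect on Vcam1 was larger in anterior than in posterior pituitary (difference of log2 fold changes, posterior minus anterior, -8.34 ± 0.83, adjusted p = 0.0019), and larger in each lobe than in cerebellum (11.86 ± 0.82, adjusted p = 5.3e-05, and 3.52 ± 0.57, adjusted p = 0.013). For Vwf the anterior lobe differed from cerebellum (7.08 ± 0.69, adjusted p = 0.00034) and from the posterior lobe (-4.76 ± 0.66, adjusted p = 0.012), and the posterior lobe did not pass the threshold against cerebellum (2.32 ± 0.60, adjusted p = 0.12). That last difference was called under 3 of 8 other settings (DESeq2, no filter and the replicate block, adjusted p from 1.5e-05 to 0.28) and with 4 of 8 libraries left out, replicate 1 of WT cerebellum, replicate 2 of stabilized cerebellum, replicate 2 of WT posterior and replicate 1 of stabilized posterior pituitary (1.82 to 3.1 over the 8). With the length offset the calls of Vcam1 in posterior pituitary against cerebellum and of Vwf in anterior pituitary against cerebellum and between lobes were lost, and the last also with protein-coding transcripts and with only the groups compared. On the TPM scale none of these differences was called by limma (adjusted p over the settings up to 0.077, 0.30 and 0.26 for Vcam1 and up to 0.20, 0.28 and 0.70 for Vwf, in anterior pituitary against cerebellum, posterior pituitary against cerebellum and between lobes). The fitted sizes in anterior pituitary depend on how a WT level near 0 is treated and are no bounds. Over the 8 settings they ran for Vcam1 from 5.04 to 12.21 against cerebellum and from -8.72 to -2.76 between lobes (-10.39 to -7.48 with a library left out), and for Vwf from 3.94 to 7.65 and from -5.13 to -1.15. For Vcam1 in posterior pituitary against cerebellum they ran from 2.27 to 3.55. These comparisons share their control libraries. Of 21 tests of the 7 genes 5 were called, against 0.519% (anterior pituitary minus cerebellum), 0.927% (posterior pituitary minus cerebellum) and 0.128% (between lobes) of all genes.

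Genes of other cell types moved with Vcam1 and Vwf. Of 12 macrophage and microglia markers 2 were called higher in anterior lobe ECs of stabilized mice and 4 in posterior lobe ECs, and none lower. Over all genes 0.441% and 1.25% were called higher in the anterior and posterior lobe. The sum of these markers was 132 to 134 CPM in WT and 427 to 703 CPM in stabilized anterior pituitary ECs. In posterior pituitary ECs it was 5.96 to 10.9 and 588 to 784 CPM. Lyz2, a lysozyme of macrophages, had 0.481 and 0.0943 CPM in WT and 43.8 and 74.7 CPM in stabilized anterior pituitary ECs, and the macrophage receptor Adgre1 had no read in WT and 32.2 and 64.4 CPM in stabilized libraries. In cerebellum ECs the sum was 8.99 to 17.5 and 15.1 to 19.2 CPM. The part of such cells in the levels of Vcam1 and Vwf was not tested. Endothelial markers summed to 9760 to 10600 CPM in WT and 9160 to 10400 in stabilized anterior pituitary ECs and to 13400 to 14300 and 6910 to 7730 CPM in posterior pituitary ECs, where Kdr, the main VEGF receptor, and Pecam1 were called lower.

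In anterior pituitary ECs 2 of 9 arterial genes were called higher in stabilized libraries, Gja5 and Bmx, where 0.441% of all genes were called higher. Gja5 had no read in WT and 3.49 and 7.26 CPM in stabilized anterior pituitary ECs, and Bmx no read in WT and 5.77 and 5.52 CPM in stabilized libraries. The adjusted p values were 0.00404 and 0.0323. The list median was 0.27 against 0.06 over all genes. None of the 9 other venous genes was called in either lobe by edgeR (1 in anterior and 5 in posterior pituitary with an unadjusted p under 0.05), with list medians of 1.25 and 1.61 against 0.06 and 0.01 over all genes. The venous transporter Slc38a5 was picked after its values were seen and does not stand for its list. At 148 and 391 CPM in WT cerebellum ECs, it had 0.0712 and 0 CPM in stabilized anterior and 5.43 and 3.02 CPM in stabilized posterior pituitary ECs.

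**Figure D2:**
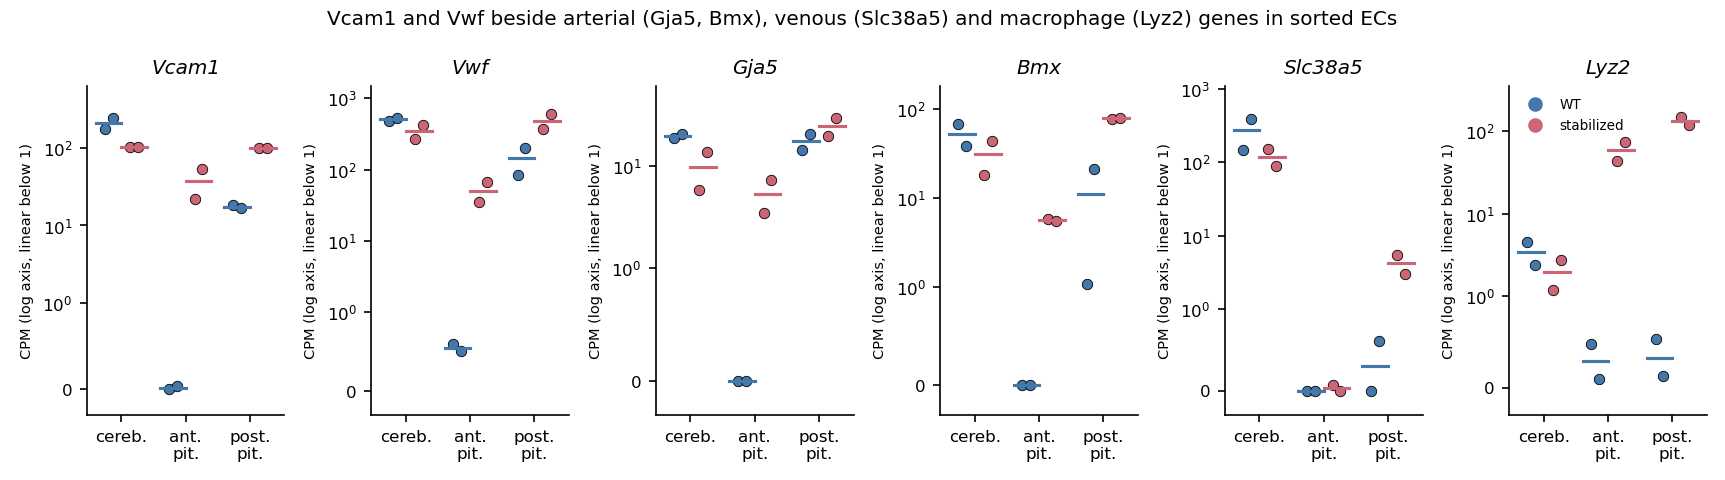
CPM in each sorted EC library (log axis, linear below 1 CPM) of Vcam1 and Vwf beside 2 arterial genes (Gja5, Bmx), a venous transporter (Slc38a5) and a macrophage gene (Lyz2). Points are libraries and lines the mean of 2. In anterior pituitary ECs Vcam1, Vwf, Gja5, Bmx and Lyz2 lie higher in the stabilized libraries, whereas Slc38a5 stays at 0 to 0.0712 CPM. Gja5 and Bmx are the arterial genes called there, and Slc38a5 was picked after its values were seen. The median fold change of the venous list was above that of the arterial list in this lobe.

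Icam1 fell in cerebellum ECs. It had 89.0 and 95.2 CPM in WT and 27.1 and 25.0 CPM in stabilized libraries, a 3.53-fold difference (-1.82 ± 0.32, adjusted p = 0.025), and was called under 4 of 8 other settings (adjusted p from 3e-05 to 0.43, log2 fold change -1.96 to -1.74). It was not called without stabilized cerebellum replicate 2 (adjusted p = 0.057). In anterior pituitary ECs Icam1 had 104 and 182 CPM in WT and 62.2 and 73.3 in stabilized libraries, with no overlap (-1.08 ± 0.32, adjusted p = 0.29). In posterior pituitary ECs it had 123 and 162 and then 78.0 and 112 CPM (-0.58 ± 0.31, adjusted p = 0.45). It was called in the anterior lobe by DESeq2 (adjusted p over 8 settings from 0.048 to 0.31, log2 fold change -1.71 to -1.04) and in the posterior lobe by limma on TPM (0.038 to 0.72, -2.34 to -0.55), where WT libraries had 54.81 and 58.13 TPM and stabilized libraries 9.13 and 12.72. Immediate early genes, which dissociation of a tissue can raise, also had lower sums in stabilized ECs, with 390 to 3320 CPM in WT and 210 to 246 in stabilized cerebellum, 9410 to 12000 and 2020 to 2520 in anterior, and 2260 to 5930 and 961 to 1050 CPM in posterior pituitary. In cerebellum 2 of 9 were called lower (Egr1, -4.29, and Dusp1, -3.05), where 0.581% of all genes were called lower. There mural markers summed to 3360 to 3540 CPM in WT and 2310 to 2470 CPM in stabilized ECs, and fibroblast markers to 45.3 to 58.2 and 0.773 to 6.19 CPM. Their relation to the fall of Icam1 was not tested. Of 14 NF-kB and cytokine target genes none was called by edgeR in cerebellum, anterior or posterior pituitary (5, 3 and 5 with an unadjusted p under 0.05), with list medians of -0.77, -0.03 and -0.12.

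Nr2f2 was not called in any tissue with all libraries. Cerebellum ECs had 42.3 and 29.1 CPM in WT and 18.3 and 18.4 in stabilized libraries (-0.96 ± 0.42, adjusted p = 0.50), anterior pituitary ECs 135 and 91.1 and then 143 and 94.8 CPM, and posterior pituitary ECs 40.1 and 16.1 and then 58.8 and 47.5 CPM (0.92 ± 0.42, adjusted p = 0.39). The last was called without WT posterior pituitary replicate 1 (adjusted p = 0.032), and its log2 fold change lay between 0.40 and 1.75 with a library left out. The groups overlapped in the anterior lobe and not in the other 2 tissues. Lrg1 overlapped between genotypes in cerebellum (2.63 and 16.5 against 1.89 and 9.65 CPM) and anterior pituitary (43.9 and 13.9 against 30.0 and 62.4 CPM), and in posterior pituitary had 17.6 and 6.69 CPM in WT and 22.5 and 26.3 CPM in stabilized libraries (1.01 ± 0.94, adjusted p = 0.69, and 0.47 to 1.89 with a library left out).

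On the CPM scale both selectins had their highest levels among sorted ECs in the stabilized posterior pituitary, without a call. In TPM Sele was higher in WT cerebellum ECs (1.201 and 0.907) than there (0.865 and 0.818). Sele had 1.90 and 1.22 CPM in WT and 6.74 and 6.37 CPM in stabilized libraries (adjusted p = 0.77), and Selp 2.43 and 1.16 and then 9.06 and 11.6 CPM (adjusted p = 0.69). In CPM neither overlapped between genotypes there. In TPM Selp did, with 0.6175 and 4.078 in WT and 9.241 and 3.137 in stabilized libraries. In anterior pituitary ECs a single stabilized library, replicate 2, the one with conflicting labels, held all reads of Sele (1.70 CPM) and Selp (0.764 CPM). In stabilized cerebellum ECs Sele had 3.25 CPM in replicate 1 and no read in replicate 2, and Selp had no read in both, against 0.143 and 3.74 CPM in WT. That Selp difference was not called by edgeR (adjusted p = 0.43) and was called by DESeq2 (adjusted p over 7 settings from 0.037 to 0.74).

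In all, 4 of the 21 tests of genotype in ECs were called, and 10 had an unadjusted p under 0.05. The shares of all genes called were 0.648% in cerebellum (0.581% lower), 0.458% in anterior pituitary (0.441% higher) and 1.79% in posterior pituitary (1.25% higher). No share is given for the unadjusted p. In simulated data like the posterior pituitary ECs, with 200 of 17165 genes changed 4-fold, 22.5% were recovered with 6 false calls, so a gene that was not called may still have changed. GFP-negative cells served as the background. There 0 of 12 tests of Vcam1, Icam1, Vwf and Nr2f2 were called by edgeR, 0 had an unadjusted p under 0.05, and 0 were called by DESeq2, where 0.760%, 0.0408% and 0.133% of all genes were called in cerebellum, anterior and posterior pituitary. Sele, Selp and Lrg1 did not pass the filter on low counts in GFP-negative cells.

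**Figure D3:**
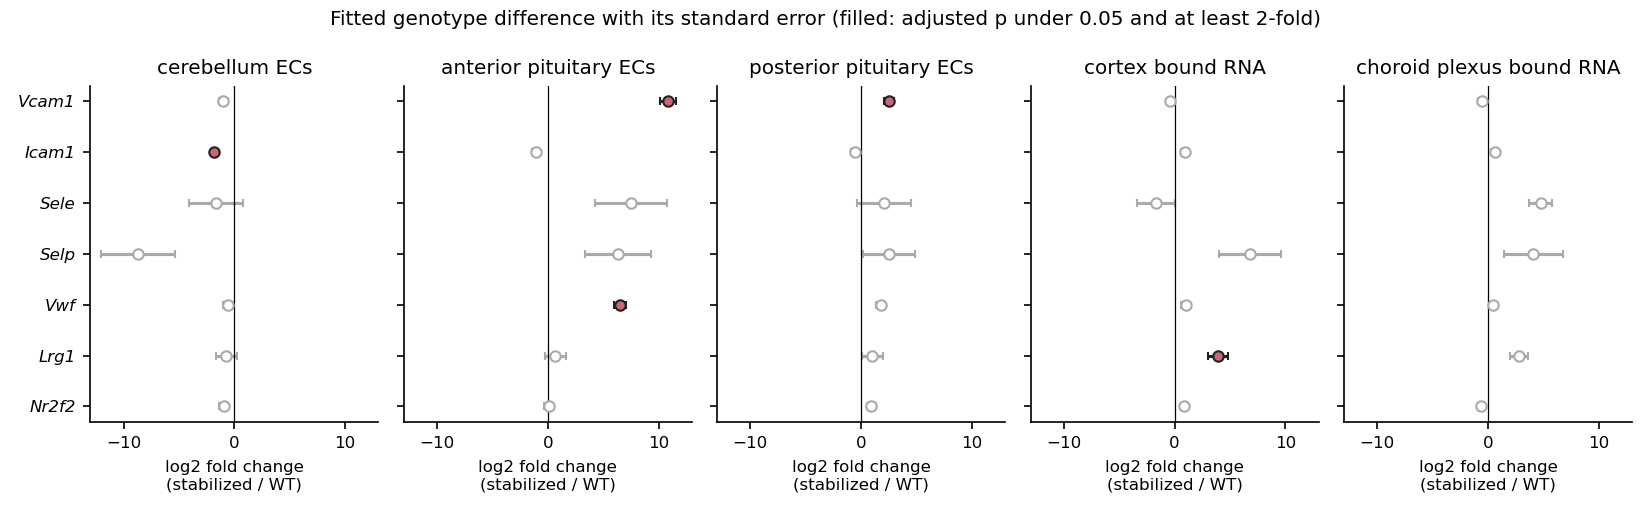
Fitted log2 fold change of stabilized over WT (horizontal axis) with its standard error for the 7 genes in sorted ECs of 3 tissues and in bound RNA of cortex and choroid plexus. Filled points passed the adjusted p of 0.05 and the 2-fold limit. Only Icam1 in cerebellum, Vcam1 and Vwf in anterior pituitary, Vcam1 in posterior pituitary and Lrg1 in cortex are filled, and the fits for Sele and Selp have the widest errors.

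Partners of the adhesion molecules were measured in the same ECs. Of 13 other endothelial adhesion and transmigration genes none was called in anterior pituitary by edgeR (0 with an unadjusted p under 0.05), and 3 were called lower in posterior pituitary: Mcam, an adhesion molecule of vessels (-1.85), Podxl, a sialomucin (-1.78), and Pecam1, which takes part in leukocyte passage between ECs (-1.07). None was called higher, and the list medians were -0.09 and -0.04. Over all genes 0.458% were called in anterior and 1.79% in posterior pituitary, where the endothelial markers given above also had lower sums. Of 8 leukocyte ligands and integrins Itga4, the alpha4 subunit that binds VCAM1, was called higher in posterior pituitary (2.44 ± 0.56, adjusted p = 0.049), from 2.87 and 1.28 CPM to 12.9 and 9.91 CPM, beside the macrophage genes given above. In WT cerebellum ECs Itga4 had 41.6 and 91.1 CPM. Of 9 Weibel-Palade body genes none was called by edgeR in sorted ECs of cerebellum, anterior or posterior pituitary (2, 1 and 3 with an unadjusted p under 0.05). The cargo gene Angpt2 had 39.5 and 11.9 CPM in WT and 78.5 and 83.0 CPM in stabilized posterior pituitary ECs. Madcam1, which encodes the mucosal addressin, had reads in 1 of the 12 EC libraries (1.16 CPM).

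Across the 12 EC libraries, as a description of samples that share tissues and genotypes, each of the 7 genes was set beside the other genes of at least 10 TPM in 2 or more libraries (8529 for Sele and Selp and 8528 for the rest) by Pearson's r of log2(TPM + 1). Vcam1 was most like Prom1 (0.95), Pmaip1 (0.942) and Fn1 (0.937), and Vwf most like Bmx (0.928), Vcam1 (0.906) and Mecom (0.898). Nr2f2 was most like Gh (0.935), the growth hormone gene of the anterior pituitary, whose level marks RNA of endocrine cells, then Mmrn1 (0.933) and Nceh1 (0.930). Icam1 was most like Prdm1 (0.929), Anxa6 (0.928) and Parva (0.927), Lrg1 most like Cd200 (0.873), A430005L14Rik (0.869) and Tmem158 (0.850), and Sele most like Ecm1 (0.842), Vim (0.838) and Tagln (0.820). Selp had the lowest values, with Hacl1 (0.758), Chmp1a (0.757) and AW112010 (0.755). Among the 7 genes themselves the most opposed pairs were Vwf and Nr2f2 (-0.793), Vcam1 and Nr2f2 (-0.628) and Vcam1 and Icam1 (-0.600). The most alike were Vcam1 and Vwf (0.906), Nr2f2 and Lrg1 (0.740) and Sele and Vwf (0.737).

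RiboTag libraries gave the same genes in cortex and choroid plexus. Bound RNA was richer than input in ECs and also in macrophages: in WT cortex 10 of 10 endothelial and 11 of 12 macrophage and microglia markers were called higher in bound RNA, and in WT choroid plexus 10 of 10 and 10 of 12. In WT cortex 4 of the 7 genes were called higher in bound RNA. Vwf had 220 and 123 CPM in bound and 3.60 and 5.19 CPM in input RNA (4.73 ± 0.44, adjusted p = 8.6e-06). Icam1 had 31.3 and 23.6 CPM in bound and 1.03 and 1.09 CPM in input RNA (4.14 ± 0.40, adjusted p = 1.1e-05). The difference was smaller for Vcam1, with 87.6 and 54.3 against 18.3 and 18.7 CPM (1.40 ± 0.29, adjusted p = 0.0052), and Lrg1 had 5.79 and 2.0 against 0 and 0.430 CPM (3.53 ± 1.05, adjusted p = 0.038). On CPM scaled apart for bound and input RNA the libraries overlapped in none of the 4, and no share over all genes is given for this. The Vcam1 call was lost with the length offset and with limma on TPM (adjusted p up to 0.06), and the Lrg1 call with limma on TPM and with only the groups compared (up to 0.21). In WT choroid plexus Vwf (4.12 ± 0.43, adjusted p = 4e-05), Lrg1 (4.60 ± 1.06, adjusted p = 0.0081) and Icam1 (1.39 ± 0.35, adjusted p = 0.014) were. Vcam1 was not, with 143 and 155 CPM in bound and 156 and 185 CPM in input RNA of choroid plexus, nor was Nr2f2, with 125 and 93.9 and then 120 and 137 CPM. Those 7 calls of 14 tests stand against 11.6% and 15.3% of all genes. With a library left out the log2 fold change of Lrg1 ran from 2.88 to 8.3 in cortex and from 2.57 to 5.27 in choroid plexus. The Lrg1 calls rest on few input reads and were lost without 1 library in either tissue (without input replicate 1 or bound replicate 1 in cortex, and without either input or bound replicate 2 in choroid plexus), and the Icam1 call in choroid plexus was lost with the length offset (adjusted p = 0.098) and without input replicate 1 or either bound library.

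Of 14 tests of the 7 genes in bound RNA of stabilized against WT mice 1 was called, Lrg1 in cortex, where 6.32% of all genes were called. In cortex it had 5.79 and 2.0 CPM in WT and 31.4 and 84.8 CPM in stabilized bound libraries (3.91 ± 0.87, adjusted p = 0.031). It was called under 5 of 8 other settings (adjusted p from 2.6e-20 to 0.085) and not without stabilized cortex replicate 2 (adjusted p = 0.083, log2 fold change 3.05, against 3.35 to 4.85 without the other libraries). In choroid plexus it had 4.69 and 30.4 CPM in WT and 135 and 104 CPM in stabilized libraries, without overlap (2.77 ± 0.82, adjusted p = 0.17). It was called by DESeq2 and without the filter on low counts (adjusted p over 8 settings from 4.1e-11 to 0.28) and without WT choroid plexus replicate 2, where the log2 fold change was 4.70. Lyz2 in bound RNA of choroid plexus had 128 and 187 CPM in WT and 412 and 433 CPM in stabilized libraries, and the macrophage markers summed to 482 to 637 and 791 to 967 CPM, whose part in this was not tested. The effects in the 2 tissues were not called as different.

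Sele was found mainly in bound RNA of stabilized choroid plexus. It had 7 and 4 reads in WT libraries (0.965 and 0.552 CPM) and 153 and 146 reads in stabilized libraries (21 and 21.4 CPM), a ratio of summed reads of 27.9 (15.4 to 56.6), and no overlap. With edgeR the difference was 4.78 ± 1.04 and missed the threshold (adjusted p = 0.095), whereas it was called under 4 of 8 other settings (adjusted p from 0.00016 to 0.15), DESeq2 and limma on TPM among them. In bound RNA of stabilized cortex Sele had no read, so that choroid plexus was at least 118-fold higher. Input of choroid plexus had 0 and 0.105 CPM in WT and 0.678 and 0.417 CPM in stabilized libraries. Selp in bound RNA reached 2.47 CPM at most in choroid plexus and 2.62 CPM in cortex, each in 1 stabilized library.

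**Figure D4:**
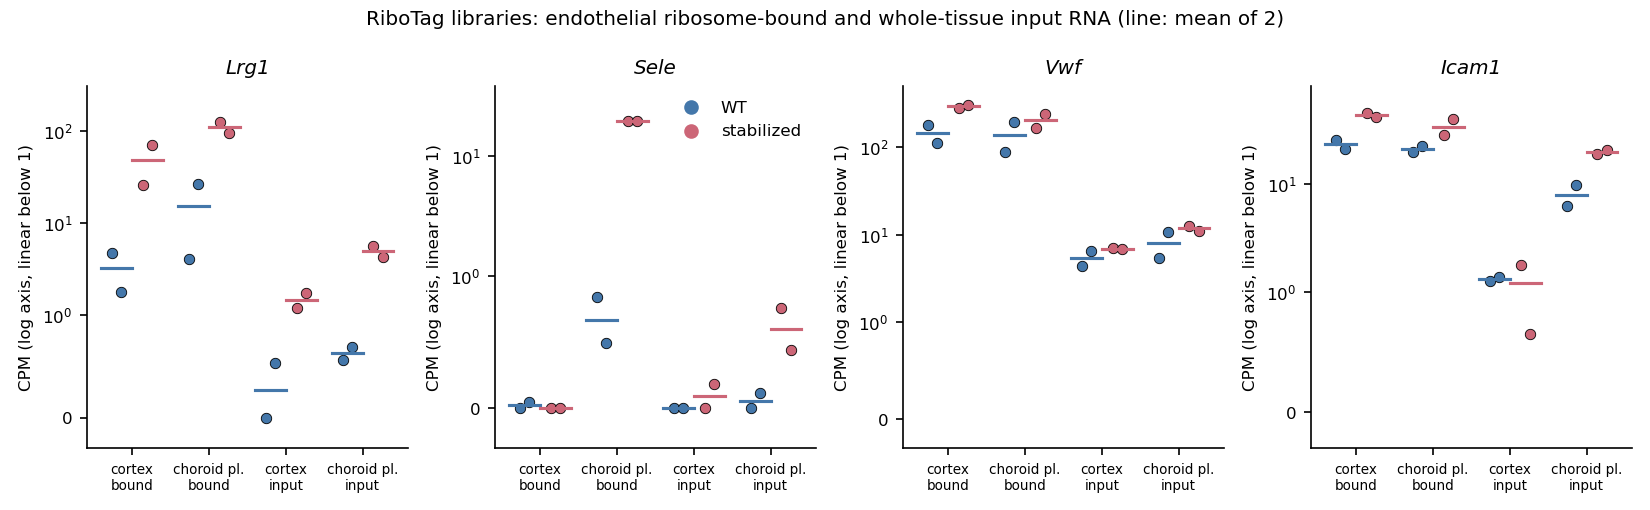
CPM of Lrg1, Sele, Vwf and Icam1 in each RiboTag library (log axis, linear below 1 CPM), bound and input RNA of cortex and choroid plexus, scaled over all RiboTag libraries together. Points are libraries and lines the mean of 2. Lrg1 lies higher in stabilized than in WT bound RNA of both tissues, and Sele is seen mainly in stabilized choroid plexus bound RNA.

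No call was made for the other genes in bound RNA by the edgeR test that defines a call. Vwf had 220 and 123 CPM in WT and 338 and 356 CPM in stabilized cortex (1.02 ± 0.40, adjusted p = 0.17), and 99.6 and 215 and then 173 and 259 CPM in choroid plexus (0.46, adjusted p = 0.67, and 0.02 to 1.15 with a library left out). In cortex it was called without the filter and with the length offset (adjusted p over 8 settings from 0.0088 to 0.28, log2 fold change 0.98 to 2.36). Icam1 had 31.3 and 23.6 and then 54.8 and 49.5 CPM in cortex (0.93 ± 0.32, adjusted p = 0.12), where the sign turned on the TPM scale, and 22.8 and 25.0 and then 29.8 and 43.3 CPM in choroid plexus (0.61 ± 0.32, adjusted p = 0.43). Nr2f2 had 35.4 and 33.1 and then 54.4 and 66.5 CPM in cortex (0.82 ± 0.26, adjusted p = 0.092) and 125 and 93.9 and then 67.5 and 75.2 CPM in choroid plexus (-0.62 ± 0.25, adjusted p = 0.32). Vcam1 had 87.6 and 54.3 and then 37.7 and 71.2 CPM in cortex, which overlapped, and 143 and 155 and then 113 and 89.9 CPM in choroid plexus (-0.55 ± 0.34, adjusted p = 0.52). Of the 14 tests 8 had an unadjusted p under 0.05, a limit for which no share over all genes is given. The stricter rule for a call was met by 6.32% of all genes in cortex and 0.852% in choroid plexus. The difference between the 2 tissues in response was called for 0 of 7 genes by the same edgeR test, where 2.15% of all genes were called. Of the 7 genes 2 had an unadjusted p under 0.05, and 1 was called by DESeq2. In cortex bound RNA endothelial markers summed to 873 to 1840 CPM in WT and 2460 to 2500 CPM in stabilized libraries and neuron markers to 2250 to 2830 and 1100 to 1110 CPM, and in choroid plexus epithelial markers went from 42800 to 43300 CPM to 23400 to 26300 CPM. The part of this in the members' levels was not tested.

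Between WT tissues, bound RNA of choroid plexus had more Nr2f2 than that of cortex (1.68 ± 0.26, adjusted p = 0.0012), more Sele (4.24 ± 1.21, adjusted p = 0.029) and more Vcam1 (1.07 ± 0.35, adjusted p = 0.042), where 29.7% of all genes were called and composition differed between the tissues. The calls of Nr2f2 and Sele were lost with limma on TPM, that of Sele also with the length offset. The sign for Vcam1 turned on the TPM scale, and its call was lost with the replicate block, with the length offset and without WT cortex replicate 2 or either choroid plexus library. The call of Sele was lost without replicate 1 of either tissue. Sele had 0 and 1 read in WT cortex and 7 and 4 reads in WT choroid plexus bound RNA. Its log2 fold change ran from 0.25 to 4.77 over 7 settings. In whole-tissue input Nr2f2 was called higher in stabilized cortex (25.3 and 22.0, then 85.4 and 63.4 CPM; 1.65 ± 0.17, adjusted p = 0.00069), where 11.8% of all genes were called, and was not called on the TPM scale, where all genes shifted by a median of -1.17. Lrg1 in choroid plexus input had 0.543 and 0.632 CPM in WT and 5.13 and 4.03 CPM in stabilized libraries, and Icam1 5.97 and 8.96 and then 17.1 and 19.5 CPM. Neither overlapped and neither was called (adjusted p = 0.56 and 0.42, called without the filter on low counts), where 0.106% of all genes were called.

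Among the other venous genes, Lcn2, which encodes the iron-binding lipocalin 2 and rises in inflammation (3.06), and Ephb4, the venous receptor of ephrin B2 (2.45), were called higher in bound RNA of stabilized cortex, and Ch25h, a cholesterol hydroxylase (5.43), and Slc38a5 (2.46) in that of stabilized choroid plexus, 2 of 9 genes in each tissue and none lower. The list medians were 0.33 and 2.23. Over all genes 6.32% were called in cortex and 0.852% in choroid plexus. In choroid plexus Ch25h went from 0.552 and 0.414 CPM to 27.3 and 15.4 CPM, and Angpt2, 1 of 9 Weibel-Palade body genes called there, from 4.00 and 8.28 to 62.3 and 52.2 CPM. Of 9 NF-kB and cytokine target genes tested, 1 was called higher in cortex (Nfkbia, the NF-kB inhibitor, 1.2) and none in choroid plexus (2 with an unadjusted p under 0.05 there).

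Chromatin at the 7 genes was read from peaks called in each ATAC-seq library, within 10 kb of the gene body. Distances of peaks are counted from the start of the annotated gene. For Icam1, Nr2f2 and Lrg1 this start differs from the RefSeq start of the promoter windows. A peak was gained when both stabilized libraries of a tissue had it and neither WT library did. Of 21 pairs of gene and tissue 9 had a gained peak, 15 peaks in all, and 0 had a lost one, where 15.8%, 8.12% and 19.5% of protein-coding genes had a gained peak in cerebellum, anterior and posterior pituitary and 1.73%, 5.70% and 1.2% a lost one. The pairs with a gained peak were Vcam1, Sele, Selp and Vwf in cerebellum, Vwf alone in anterior pituitary, and Icam1, Sele, Vwf and Lrg1 in posterior pituitary. The shares over protein-coding genes were not matched for gene length, and Vwf is the longest of the 7 genes. Peak lists hold no read counts, so that presence and not size is compared.

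Vwf had gained peaks in all 3 tissues. A peak 26647 bases from its start (chromosome 6, 125573060 to 125573613 in WT posterior pituitary) was called in all 6 groups, also in WT anterior pituitary ECs that had 36 Vwf reads (fold enrichment over local background 12.1 and 12.5). In anterior pituitary the gained peak was the one in the intron shown above (3.398 and 3.25). In posterior pituitary the gained peaks lay at the intron 6125 bases from the start (4.56 and 3.14) and at an exon 56641 bases from it (9.37 and 8.01), and both places held peaks in WT cerebellum ECs (4.40 and 3.64, and 6.12 and 6.10). The second place also held a peak in WT anterior pituitary ECs (7.12 and 8.41). Cerebellum gained 2, at 48249 and 57842 bases. The anterior pituitary place also held a peak in stabilized cerebellum ECs (3.35 and 3.404). No peak within 500 bases of the start of Vwf was called in any of the 12 libraries.

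Vcam1 had no peak within these bounds in either pituitary lobe that both libraries of a group shared, in WT or stabilized ECs, although its RNA rose there. A peak at its start was called in 1 stabilized posterior pituitary library (fold enrichment 3.66) and in 1 stabilized cerebellum library (2.87). The gained peak in cerebellum lay at -8592 bases, in an intron of Gm43109 (4.90 and 5.73). Icam1 had a peak at its start in all 12 libraries and gained 3 in posterior pituitary, at -1220 bases (3.84 and 5.07) and at 13619 and 14918 bases from its start, the last 2 at exons of the neighbouring Icam4 and of Gm47079. All 3 places held peaks in anterior pituitary ECs of both genotypes, in WT within a broad peak with its summit near the start (5.62 and 6.49) and at 13639 and 14921 bases (2.52 and 2.65, and 3.35 and 4.9), and in stabilized cerebellum ECs. The last place also held a peak in WT cerebellum ECs (4.16 and 4.28).

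Lrg1 had a peak at its start in both genotypes of anterior pituitary (3.03 and 2.66 in WT, 5.99 and 5.07 in stabilized libraries) and in no group of cerebellum, and gained one in posterior pituitary at -31 bases from the start (4.65 and 3.26), within the promoter shown above, and another at -6351 bases, at an exon of Sema6b, a place open in anterior pituitary of both genotypes (5.01 and 6.88 in WT). Sele gained the peak shown above in posterior pituitary (4.48 and 3.34) and 2 in cerebellum, at -7045 and -4516 bases. The second of these has a counterpart in both genotypes of both lobes, up to 8.65 and 10.3 in WT anterior pituitary ECs, where Sele had no read. Selp gained 1 in an intron in cerebellum, and Nr2f2 had 3 peaks in all 6 groups and another, at -2828 bases in WT, in the anterior lobe of both genotypes, and gained none.

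**Figure D5:**
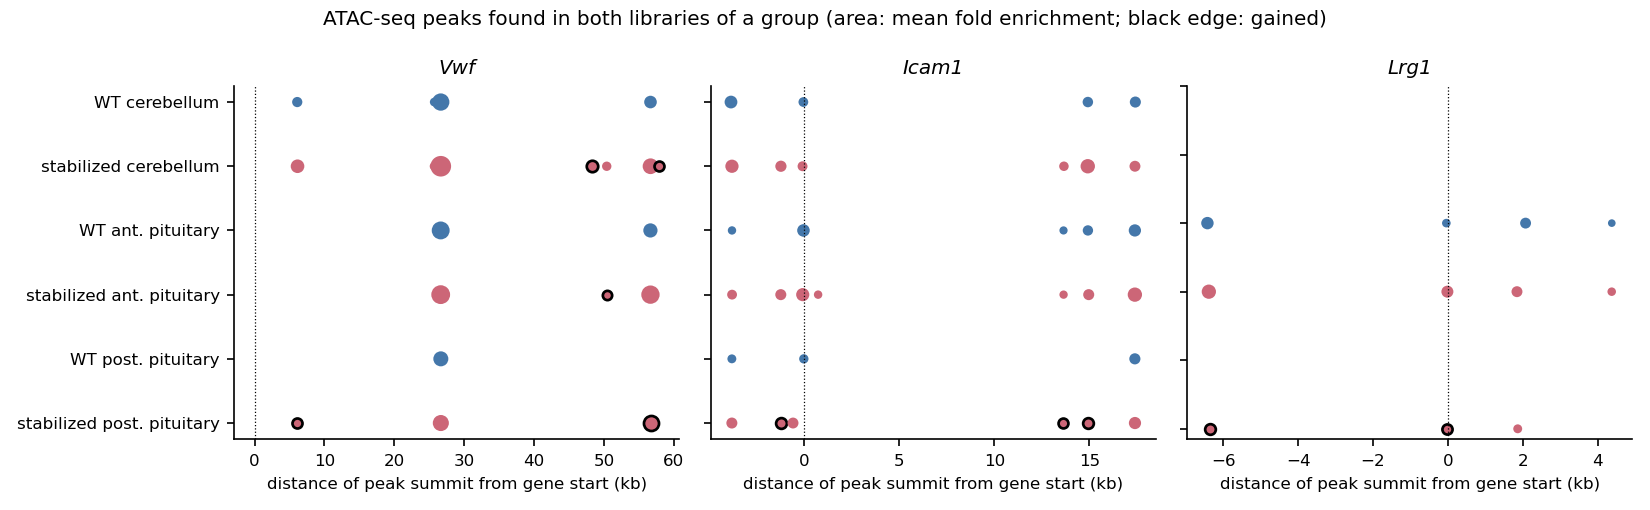
Peaks called in both ATAC-seq libraries of each group at Vwf, Icam1 and Lrg1, by the distance of the summit from the gene start in kb (horizontal axis). The area of a point follows the mean fold enrichment, and a black edge marks a gained peak. The row of stabilized posterior pituitary holds gained peaks at all 3 genes, and the Vwf peak near 27 kb is present in every row.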

How the data were processed

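RNA was measured in 24 libraries of sorted cells and 16 RiboTag libraries, and open chromatin in 12 ATAC-seq libraries, with 2 replicates in each group and groups taken from the labels. The cDNA was amplified and read single-end by the authors, and the authors describe the replicates as biological, with pituitaries and choroid plexuses of several mice pooled in each. The deposited expected counts and TPM are per transcript and were made by the authors with Salmon 0.10.2 on an Ensembl transcriptome of GRCm38. The effective lengths in the same files were deposited as another measure and served for the length offset and for finding short genes. The ATAC-seq peaks were called by the authors per library with MACS2 2.1.1.20160309 on mm10 after Bowtie2 2.3.2 and removal of duplicates with Picard, and the deposited columns used were the fold enrichment ratio over local background and the −log10 q value.

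Counts were summed per gene with GENCODE M21 (130338 of 130740 transcripts matched; the other 402 held 0.0588% to 0.385% of the reads), rounded to whole numbers and tested with edgeR 4.0.16 (R 4.3.3; TMM scaling, filterByExpr, quasi-likelihood test, Benjamini-Hochberg adjustment over all genes), in separate fits for GFP-positive, GFP-negative, bound and input libraries and joint fits for comparisons between them. Standard errors are the log2 fold change over the root of F. In all 23 comparisons were made. Alternatives were DESeq2 1.42.0, RLE scaling, no filter, a replicate block, only the groups compared, a length offset, limma 3.58.1 on log2(TPM + 0.5), each library left out and, added after seeing the data, protein-coding transcripts only. Replicates of each group differed by more than sampling noise (chi-square per degree of freedom at least 5.91). The fit was tested on simulated data with 200 genes changed 4-fold, of which 22.5% were recovered in posterior pituitary ECs and 41.5% in choroid plexus bound RNA. Peaks with a fold enrichment over 2 and −log10 q over 2 were compared by an overlap of at least 1 base. Matching windows and correlations were computed in Python 3.11.15.

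The 7 genes and the lists were chosen with earlier results of these data known. Named were the 7 genes, the 3 genes most like each of them, and up to 4 called genes per list and comparison with the largest change. Other genes given with values (Slc38a5, Itga4, Angpt2, Madcam1, Lyz2, Kdr) were chosen after their values were seen where they were not called. A called gene of the venous list that the rule would name is counted in its list but not reported here by name. The authors' own tests were not used here.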

Additional observations from a re-analysis of the deposited data

Results flagged for a closer look

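The difference between stabilized and WT ECs varied with the tissue, by the test of the difference itself, for Vcam1 and Vwf. For Vcam1 the log2 fold change of stabilized over WT ECs was higher in anterior pituitary than in cerebellum by 11.86, higher in posterior pituitary than in cerebellum by 3.52, and lower in posterior than in anterior pituitary (-8.34). For Vwf it was higher in anterior pituitary than in cerebellum by 7.08 and lower in posterior than in anterior pituitary (-4.76). These comparisons share libraries, the WT anterior pituitary ECs held 1 read of Vcam1 and 36 of Vwf, and the sizes there depend on how such levels are fitted.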

How the results depend on the processing

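Of 911 values of single genes under other settings 806 kept their direction and their side of the threshold, 48 lost a call, 43 gained one and 14 turned direction, and with each library left out 510, 24, 17 and 9 of 560 did so. The number of calls among the 7 genes moved as follows. The share of all genes called under each setting is not given here, so these counts are not set against it. Stabilized against WT ECs had 4 calls, and 7 with DESeq2, 1 with the length offset and 2 with limma on TPM (3 to 5 with a library left out). Differences between tissues in that effect had 5, and 8 with DESeq2, 8 without the filter, 2 with the length offset and 0 with limma (5 to 6). WT ECs between tissues had 7, and 12 with DESeq2 (6 to 8). ECs against GFP-negative cells had 10 (8 to 11) and genotype in GFP-negative cells 0 (0 to 0). Bound RNA had 1 call for genotype, and 3 with DESeq2, 4 without the filter, 0 with protein-coding transcripts and 2 with only the groups compared (0 to 2), and for the difference between tissues 0, and 1 each with DESeq2, without the filter and with limma (0 to 0). WT choroid plexus against cortex had 3, and 1 with the length offset or limma (2 to 3), bound against input 7 (5 to 7), and input 1, and 4 without the filter (1 to 2). Of the 21 most similar genes 12 were shared with log2(TPM + 0.1) and 6 with Spearman's rho. Pairs with a gained peak were 9, and 9 with all deposited peaks, 10 with stricter limits, 9 with the larger overlap and 12 within 50 kb. Pairs with a lost peak were 0 in each of these except within 50 kb, where they were 3.

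Direction turned with limma on TPM for Icam1 (posterior pituitary minus cerebellum -0.44, posterior minus anterior pituitary -0.80, cortex bound genotype -0.71), Sele (0.24), Selp (1.26) and Nr2f2 (-0.16) in posterior minus anterior pituitary, Lrg1 in choroid plexus minus cortex (0.56), Vcam1 in WT choroid plexus against cortex (-0.50), Vwf genotype in cortex input (-0.96) and choroid plexus input (-0.19), and Vcam1 (0.53) and Nr2f2 (0.43) in choroid plexus bound against input. It turned with the length offset for Vwf in choroid plexus input (-0.58) and with protein-coding transcripts for Vwf in anterior pituitary ECs against GFP-negative cells (6.35). With a library left out the ranges crossed 0 for Lrg1 (anterior pituitary minus cerebellum -0.45 to 3.02, posterior pituitary minus cerebellum -0.12 to 3.34, choroid plexus minus cortex -2.08 to 0.76), Sele (-6.41 to 2.09) and Selp (-4.81 to 2.54) in posterior minus anterior pituitary, Selp in choroid plexus minus cortex (-4.83 to 0.087), Vwf in anterior pituitary ECs against GFP-negative cells (-3.33 to 6.92) and Vcam1 in cortex bound RNA (-0.89 to 0.003). The cause was not tested. A library left out leaves a group with 1 sample, which is then assumed to vary like the others.

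Replicate numbers were not shown to pair the samples, since same-numbered libraries did not deviate together (correlations between -0.21 and 0.144 over the fits). Both lobes were taken from the same pooled pituitaries, and the sources used here do not tie a number to a pool. With the replicate number as a block the calls, in the order above, were 5, 6, 8, 10, 0, 1, 0, 2, 7 and 1.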
